A study of Oryza sativa with 6 samples.

Results

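CYP71P1, HSF10 and BI-1 are 3 rice genes tied to cell death in leaves, and their transcript levels were compared between OsSRT1 RNAi plants and untransformed plants. They were found by symbol or synonym in a RefSeq rice gene table and joined by gene identifier to the array's annotation, which gave 4 probe sets for 3 of 17905 annotated genes. The name SPL7 belongs to 2 genes in that table, and HSF10 (LOC4339409) was taken by its heat shock factor name. CYP71P1 is LOC4351945 and BI-1 is LOC4328149. The genes were chosen by their lower signal in RNAi than in control leaves on these same arrays, so those values are a description here and carry no test.

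RNA came from young leaves of the indica variety Minghui63 at 11 days, before lesions appeared on the RNAi plants. The 3 RNAi samples are titled transgenic line LM1, LM2 and LM3 and carry an inverted repeat against the 3' untranslated region of OsSRT1, a sirtuin of the NAD-dependent deacetylase family. The 3 control samples are untransformed Minghui63 with no construct. The labels do not say outright whether the LM numbers are separate lines, nor that samples came from separate plants, so every p-value below rests on a spread that may be technical.

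Lesion mimic and spotted leaf mutants form dead spots on leaves with no pathogen present. CYP71P1 is the product of SL, the Sekiguchi lesion locus, and is the cytochrome P450 that hydroxylates tryptamine to serotonin. HSF10, also named HSFA4D, is a class A heat shock transcription factor encoded by the spotted leaf locus SPL7. BI-1 is Bax inhibitor 1, a conserved membrane protein of the endoplasmic reticulum that restrains programmed cell death. Loss of SL or SPL7 function gives spotted leaves in rice.

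Signals are probe set intensities, with each array scaled to a trimmed mean of 500. Scaled array medians ran from 40.2 to 46.1, and precision is limited by having 3 arrays a group. No probe set was named for OsSRT1, so the knockdown itself was not checked. All control arrays share 1 hybridization entry and all RNAi arrays a later one, so array run and group cannot be told apart. The 3'/5' ratio of the array's Actin probe sets was 3.98 to 5.85 on RNAi arrays and 6.68 to 9.02 on control arrays, while the ratios of Gapdh and Cyph overlapped between groups. Of 12 leaf marker names, 3 could be matched to a gene with a probe set, RBCS, CAB2R and RCA. All were above the signal filter, with a summed signal of 91076 to 106012 on RNAi arrays and 96801 to 116717 on control arrays. The summed signal of 4 root markers was 1028 to 1567 on RNAi arrays and 1717 to 2094 on control arrays, most of it from the silicon transporter gene LSI1, with LSI2 and SHR1 under the filter. No root marker passed the test. LSI1 had a log2 difference of -0.55 (limma, adjusted p = 0.200). SCR1 overlapped between groups, at -0.05 (limma, adjusted p = 0.954). Among all tested probe sets, 9.88% were lower in RNAi without overlap. The sums for markers of dividing cells, seed and pollen overlapped between groups. The part of these differences in the results below was not tested. In bulk leaf RNA, fewer cells of a type and less RNA per cell cannot be told apart.

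All 3 genes had lower signal in RNAi leaves. The mean RNAi signal was 26.0% of the control mean for HSF10 and 69.3% for BI-1. For CYP71P1 it was 4.9%, but its RNAi mean of 28.9 lies under 36.1, the signal that matches the lowest mean log2 value of any tested probe set, so that share is uncertain. Its brighter probe set passed the filter on low signal through the control arrays. At each of the 4 probe sets, every RNAi value lay below every control value. Among all 28597 tested probe sets, 9.88% were lower in RNAi without overlap and 1.01% passed the test as lower. Nothing is read from the members' own count, because this contrast chose them.

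The brighter of the CYP71P1 probe sets had scaled signals of 23.2, 15.6 and 48.0 in RNAi replicates 1 to 3, against 558, 510 and 703 in control replicates 1 to 3. The groups were far apart, and the lowest control value was 10.6 times the highest RNAi value. The means were 28.9 ± 17.0 in RNAi and 590 ± 101 in control leaves (SD, n = 3 each), and the difference in log2(signal + 16) was -3.81 with a standard error of 0.33 from the replicate spread. Of all tested probe sets, 2 had a more negative difference. The RNAi values lay under 36.1 in 2 of 3 arrays, and the size of the difference rests on the added constant: it was -4.44 with 1 added and -2.82 with 64 added.

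The dimmer CYP71P1 probe set read close to the bottom of the scale in both groups. Its signals were 1.81, 1.30 and 3.83 in RNAi replicates 1 to 3, against 6.74, 22.0 and 7.86 in control replicates 1 to 3. It lay at the 10.9th percentile of mean signal among all probe sets and was the only 1 of the 4 left out by the filter on low signal. The order of the groups was the same as at the brighter probe set, with a log2 difference of -0.58, but control replicate 2 alone was 22.0 and no other array passed 7.86. The brighter probe set was at the 66.6th percentile.

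HSF10 was read by 1 probe set. Its signals were 171, 291 and 270 in RNAi replicates 1 to 3, against 1086, 1032 and 697 in control replicates 1 to 3. RNAi replicate 1 was the lowest array and control replicate 3 the lowest of its group, and that control value was still 2.4 times the highest RNAi value. The means were 244 ± 64 in RNAi and 938 ± 211 in control leaves (SD, n = 3 each), a log2 difference of -1.88 with a standard error of 0.30. Of all tested probe sets, 65 (0.227%) had a more negative difference.

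BI-1 was by far the brightest signal of the 3, at the 98.5th percentile of its arrays, and the closest between groups. Its only probe set had 7404, 7847 and 7210 in RNAi replicates 1 to 3, against 12129, 11414 and 8851 in control replicates 1 to 3. The RNAi values were tight, with the highest 1.09 times the lowest, and the control values were wider, at 1.37 times. The gap between groups was narrow, because control replicate 3 was only 1.13 times RNAi replicate 2. The means were 7487 ± 326 in RNAi and 10798 ± 1724 in control leaves (SD, n = 3 each), a log2 difference of -0.52 with a standard error of 0.14. This lay inside the range from -0.63 to 0.71 that held all but the lowest and highest 5% of tested probe sets, and 7.37% of them had a more negative difference.

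**Figure D1:**
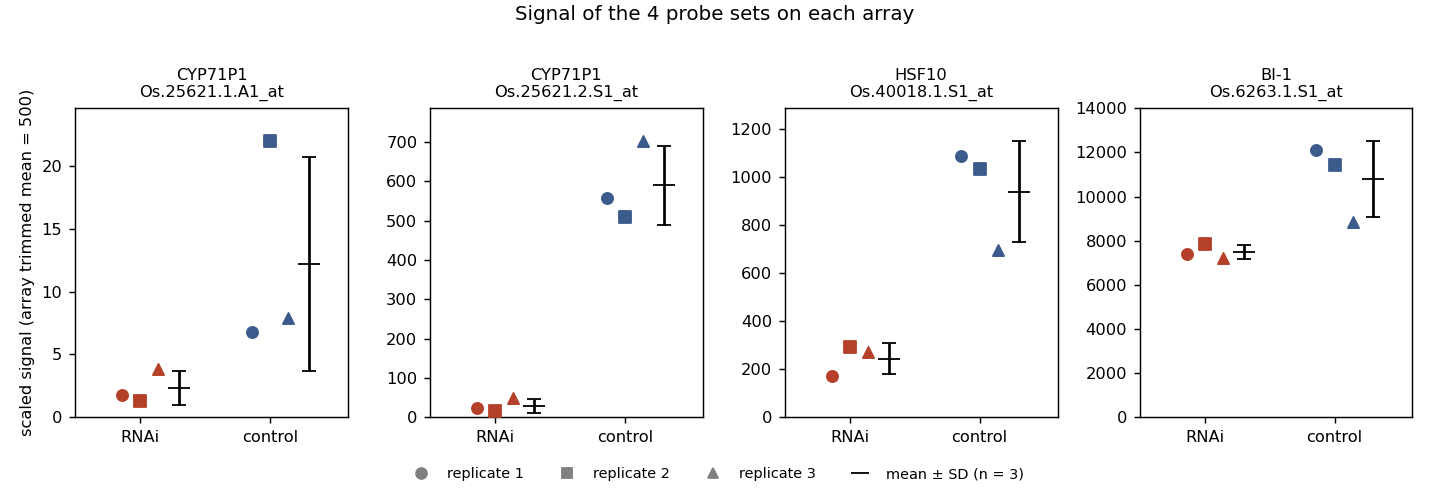
Scaled signal (array trimmed mean of 500, linear axes from 0, 1 axis per panel) of the 4 probe sets on each RNAi and control array, with symbols for replicates 1 to 3 and black bars for mean ± SD (n = 3). Every RNAi point lies below every control point, from a wide gap for CYP71P1 (48.0 against 510) to a narrow one for BI-1 (7847 against 8851).

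Within the groups, HSF10 and BI-1 ran together more than either did with CYP71P1. Control replicate 3 held the highest control signal of CYP71P1 (703) and the lowest of HSF10 (697) and BI-1 (8851). Over the 6 arrays Pearson's r of the log2 signals was 0.929 between CYP71P1 and HSF10, 0.814 between CYP71P1 and BI-1 and 0.936 between HSF10 and BI-1, which the step between groups largely sets. With each group's mean taken off, r was -0.19, -0.56 and 0.70 in the same order. CYP71P1 varied more among RNAi arrays (log2 SD 0.52) than among control arrays (0.23). Its RNAi signals of 23.2, 15.6 and 48.0 lay near 36.1, the lowest mean of a tested probe set. The r of CYP71P1 within groups thus rests largely on low signal. These describe 6 arrays, on which all 3 genes share the same RNA, and carry no p.

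Control replicate 3 was deposited brighter than the rest, with a trimmed mean of 500.1, where the RNAi arrays had 109 to 118 and the other control arrays 99.9 and 113. Without it the log2 differences were -3.68 for CYP71P1, -2.08 for HSF10 and -0.65 for BI-1. On signals as deposited, with no rescaling, they were -3.36, -2.29 and -1.15, and the median of all tested probe sets was then -0.52 in place of 0.03. The shift of all probe sets was thus as large as the difference of BI-1 itself at the reported scaling.

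**Figure D2:**
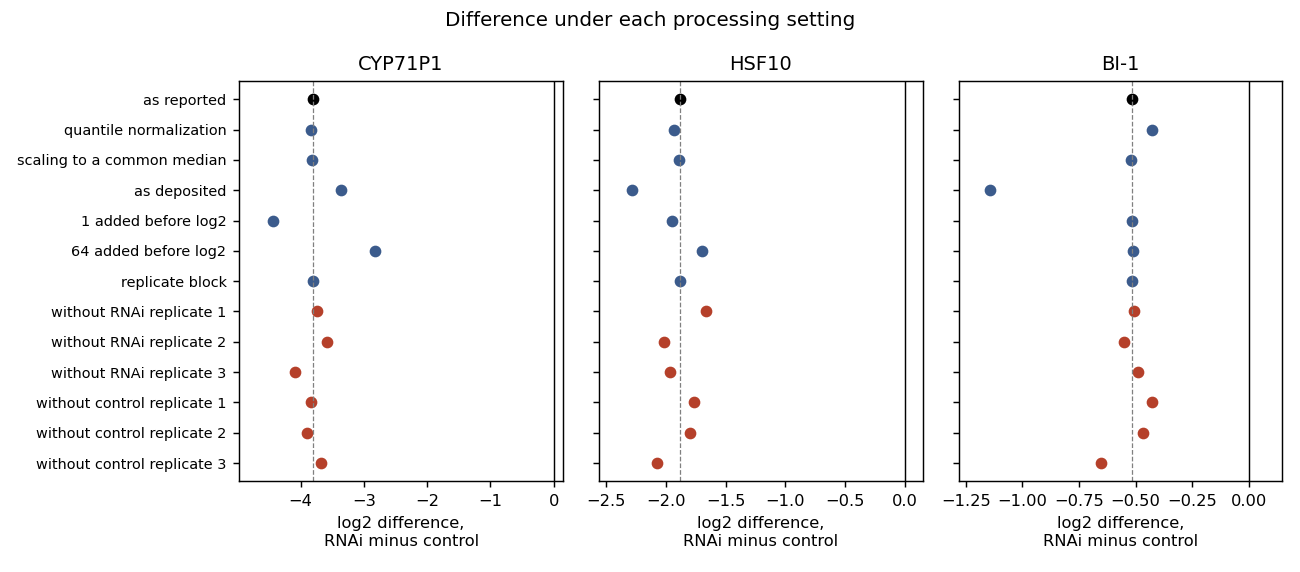
Difference in log2 signal, RNAi minus control, for the brightest probe set of each gene (horizontal axis, a separate scale per panel, solid line at 0) under the reported setting (black, dashed line), 6 other processing choices (blue) and without each array (red). Every value stays below 0, which leaving out arrays, the added constant and the replicate block could not have changed. CYP71P1 spreads from -4.44 to -2.82 with the added constant, and BI-1 reaches -1.15 only on signals as deposited.

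None of the tested enzymes around CYP71P1 passed the test. Serotonin is made from tryptophan, which comes from chorismate through anthranilate synthase, by decarboxylation to tryptamine and then hydroxylation by CYP71P1. The route was covered only in part. No matched gene on the array was of the steps between anthranilate and tryptophan, and TDC2 was the only tryptophan decarboxylase. Of 16 other genes of this route on the array, 13 had signal above the filter, and 0 rose and 0 fell with limma at an adjusted p of 0.05, where 2.1% of all tested probe sets passed. At an unadjusted p under 0.05 there were 2, and SAM called 0, against 537 of all tested probe sets. The share of all probe sets under that unadjusted p was not counted, so nothing is read from such counts here or below. The median log2 difference of the 13 genes was 0.15, against 0.03 over all tested probe sets, with 9 higher and 4 lower. On signals as deposited, where all probe sets shifted, the split was 0 higher and 13 lower, with a median of -0.47.

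TDC2, a tryptophan decarboxylase of the step just before CYP71P1, had signals of 476, 356 and 419 in RNAi replicates 1 to 3, against 496, 297 and 252 in control replicates 1 to 3. The groups overlapped, and the log2 difference was 0.30 ± 0.25 (SE; limma, adjusted p = 0.618). ASB1, an anthranilate synthase beta subunit, had 8239, 7810 and 6436 in RNAi replicates 1 to 3, against 10977, 11549 and 10162 in control replicates 1 to 3. It was lower without overlap and just missed the threshold, with a log2 difference of -0.54 ± 0.12 (SE; limma, adjusted p = 0.0513). The other beta subunit gene, ASB2, had 0.25 ± 0.22 (adjusted p = 0.623). The alpha subunit genes had 0.57 ± 0.25 for ASA1 (adjusted p = 0.311) and -0.31 ± 0.24 for ASA2 (adjusted p = 0.576).

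Downstream, SNAT2, a serotonin N-acetyltransferase on the way to melatonin, had a log2 difference of 0.36 ± 0.23 (limma, adjusted p = 0.492). The N-acetylserotonin methyltransferase genes ASMT and ASMT3 lay under the filter on mean signal over all arrays and were not tested. Nor was TBT2, listed as an acyltransferase gene of tryptamine, which is also the substrate of CYP71P1. Upstream, the shikimate kinase genes SK1 and SK2 had -0.19 ± 0.14 and -0.26 ± 0.19 (adjusted p = 0.543 and 0.558). DAHPS2, also of the shikimate pathway, had 0.04 ± 0.10 at its brighter probe set (adjusted p = 0.870). Its dimmer probe set was lower without overlap, at -0.53 ± 0.16 (adjusted p = 0.150). A miss of the threshold at 3 arrays a group does not show that these genes were alike in the 2 groups.

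Among the other genes named as heat shock factors, 1 gene passed the test, in the direction opposite to HSF10. Of 19 such genes on the array, 16 were tested. At a share of 2.1% passing over all tested probe sets, 1 of the 16 rose, 0 fell and 15 did not pass. Their log2 differences ran from -0.68 to 1.23 with a median of -0.06, 4 higher and 12 lower (1 and 15 on signals as deposited), and the groups did not overlap at 5 of 16, or 31.2%, where 22.4% of all tested probe sets did not overlap. At an unadjusted p under 0.05 there were 5, with no share of all probe sets to set beside it, and SAM called 1. The gene that rose carries the names HSFA2C and ARD1, and ARD1 is an enzyme of methionine salvage, so its probe sets may not read a heat shock factor. It was not called on signals as deposited. Its brighter probe set had 3916, 3035 and 2989 in RNAi replicates 1 to 3, against 1230, 1435 and 1534 in control replicates 1 to 3, a log2 difference of 1.23 ± 0.15 (SE; limma, adjusted p = 0.00369). Its dimmer probe set had -0.17 ± 0.37 (adjusted p = 0.861). HSFA2D, counted among the 16, also carries the names ARD and ARD2, so the same doubt holds for it. Its brighter probe set had -0.12 ± 0.12 (limma, adjusted p = 0.691). Its dimmer probe set was lower without overlap, at -0.71 ± 0.24 (adjusted p = 0.209).

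HSFA1, of the class that leads the heat response in plants, had 3686, 3053 and 2763 in RNAi replicates 1 to 3, against 1952, 2088 and 2137 in control replicates 1 to 3. It was higher without overlap and did not pass, at a log2 difference of 0.61 ± 0.13 (SE; limma, adjusted p = 0.0567). HSFB1 had 675, 737 and 688 in RNAi replicates 1 to 3, against 1166, 1198 and 843 in control replicates 1 to 3, a log2 difference of -0.58 ± 0.17 (adjusted p = 0.131). HSFA9 had -0.41 ± 0.11 (adjusted p = 0.0968) and HSFB2C had -0.68 ± 0.24 (adjusted p = 0.225). The dimmer probe sets of HSFB2C overlapped between groups, at -0.47 ± 0.45 and -0.006 ± 0.43 (adjusted p = 0.656 and 0.997). HSFA4B, the other tested factor of the A4 class, had 881, 830 and 798 in RNAi replicates 1 to 3, against 826, 960 and 821 in control replicates 1 to 3. Its groups overlapped, and its log2 difference was -0.05 ± 0.14 (adjusted p = 0.89), beside -1.88 for HSF10.

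Other genes of lesion mutants and of programmed cell death showed no call. With 2.1% of all tested probe sets passing with limma, a count of 0 in lists this small is near that share. In the lesion list, 5 genes could be matched and 4 tested, and 0 passed with limma or SAM, also with 0 at an unadjusted p under 0.05. Among them were PORB, a protochlorophyllide oxidoreductase, with -0.19 ± 0.14, GLU, the ferredoxin-dependent glutamate synthase, with -0.10 ± 0.10, and OsSSI2, a fatty acid desaturase, with 0.06 ± 0.12 (adjusted p from 0.561 to 0.841). GLU was counted by its brightest probe set, and its dimmer ones went both ways. One was lower without overlap, at -0.28 ± 0.10 (SE, limma, adjusted p = 0.233). The other overlapped, at 0.28 ± 0.30 (adjusted p = 0.706). SPL18, an acyltransferase gene, lay under the filter and was not tested. Too few lesion genes carry a name in the annotation for this to describe the class.

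In the programmed cell death list, 20 genes were on the array and 18 tested. Against 2.1% of all tested probe sets passing with limma, 0 of the 18 passed with limma or SAM, with 1 at an unadjusted p under 0.05. Their log2 differences ran from -0.40 to 0.44 with a median of -0.04, 6 higher and 12 lower (0 and 18 on signals as deposited). LOL4, of the LSD1-like zinc finger family, had 701, 925 and 993 in RNAi replicates 1 to 3, against 571, 645 and 687 in control replicates 1 to 3, higher without overlap at 0.44 ± 0.17 (SE; limma, adjusted p = 0.261). The vacuolar processing enzyme gene VPE1 had 0.26 ± 0.12 (adjusted p = 0.337) and the apoptosis inhibitor gene API5 -0.22 ± 0.12 (adjusted p = 0.408). LSD1, which restrains cell death in Arabidopsis, had -0.04 ± 0.21 (adjusted p = 0.948), and DAD1, a restrainer of cell death in the endoplasmic reticulum like BI-1, had 0.01 ± 0.11 (adjusted p = 0.971).

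**Figure D3:**
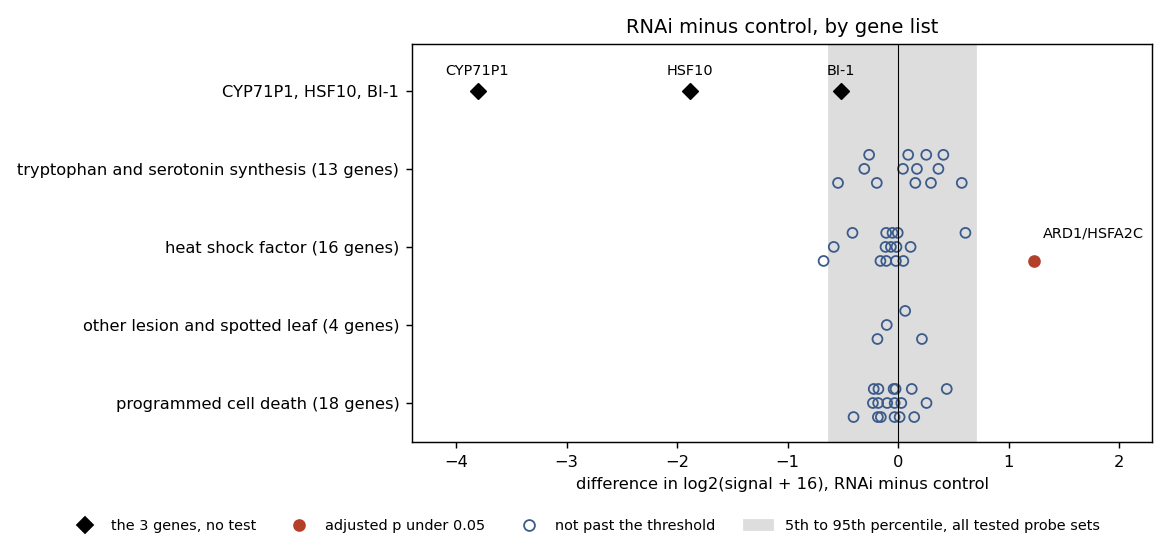
Difference in log2(signal + 16), RNAi minus control (horizontal axis), for CYP71P1, HSF10 and BI-1 (black, untested) and for the tested genes of 4 lists, 1 circle per gene (filled where adjusted p is under 0.05; vertical offsets only separate circles). CYP71P1 at -3.81 and HSF10 at -1.88 lie left of the grey band of the 5th to 95th percentile of all tested probe sets, and BI-1 at -0.52 lies in it. Of 51 list genes only the one named HSFA2C and ARD1 is filled, where 2.1% of all tested probe sets passed.

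The nearest genes with a probe set on each side of the 3 members gave no call. In gene order they lay 1 to 11 genes from CYP71P1, 1 to 5 from HSF10 and 2 to 9 from BI-1. The genes directly beside BI-1 were thus not read. With limma 2.1% of all tested probe sets passed, so a count of 0 among so few genes is near that share. Taking the 3 nearest genes on each side that have a probe set, in the gene order of the japonica assembly ASM3414082v1, 17 of 18 neighbours were tested and 0 passed with limma or SAM, with 1 at an unadjusted p under 0.05. Their log2 differences ran from -0.70 to 0.71 around CYP71P1, from -0.46 to 0.14 around HSF10 and from -0.10 to 0.36 around BI-1. OSK1, a SnRK1-type kinase gene beside HSF10, had 0.14 (limma, adjusted p = 0.602), and LOC4351944, the gene beside CYP71P1, had 0.26 (adjusted p = 0.721).

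For each member, the 3 named genes with the most similar pattern over the 6 arrays were taken from 2667 tested probe sets of named genes. For CYP71P1 they were NH3, an NPR1 homologue of salicylate signalling (r = 0.993), APR-like1 (0.993) and OsPP2C40, a protein phosphatase gene (0.988). NH3 had 215, 173 and 238 in RNAi replicates 1 to 3, against 434, 444 and 466 in control replicates 1 to 3. This is a log2 difference of -1.06, much smaller than that of CYP71P1 although the pattern was alike.

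For HSF10 the genes were CBF3 (also named DREB1A), a cold response factor (r = 0.996), IAA6, an auxin response repressor (0.994), and GRXS5, a glutaredoxin gene (0.988). CBF3 had 1871, 2482 and 2365 in RNAi replicates 1 to 3, against 4319, 4624 and 3592 in control replicates 1 to 3, with RNAi replicate 1 and control replicate 3 the lowest of their groups, as for HSF10. For BI-1 they were JAZ6, a repressor of jasmonate signalling (r = 0.992), the heat shock factor gene HSF23, which is HSFB1 above (0.991), and CPK13, a calcium-dependent kinase gene (0.987). JAZ6 had 23313, 24893 and 22150 in RNAi replicates 1 to 3, against 34323, 34271 and 26216 in control replicates 1 to 3, with control replicate 3 lowest as for BI-1.

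With group means taken off, r for these 9 genes was 0.814 to 0.979. For the matches of CYP71P1, that r again rests largely on its low RNAi signals. An r over 0.9 over the 6 arrays was reached by 3.07% of the named probe sets with CYP71P1, 3.67% with HSF10 and 1.84% with BI-1. All values come from the same 6 arrays and the genes were ranked by r, so these are descriptions.

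**Figure D4:**
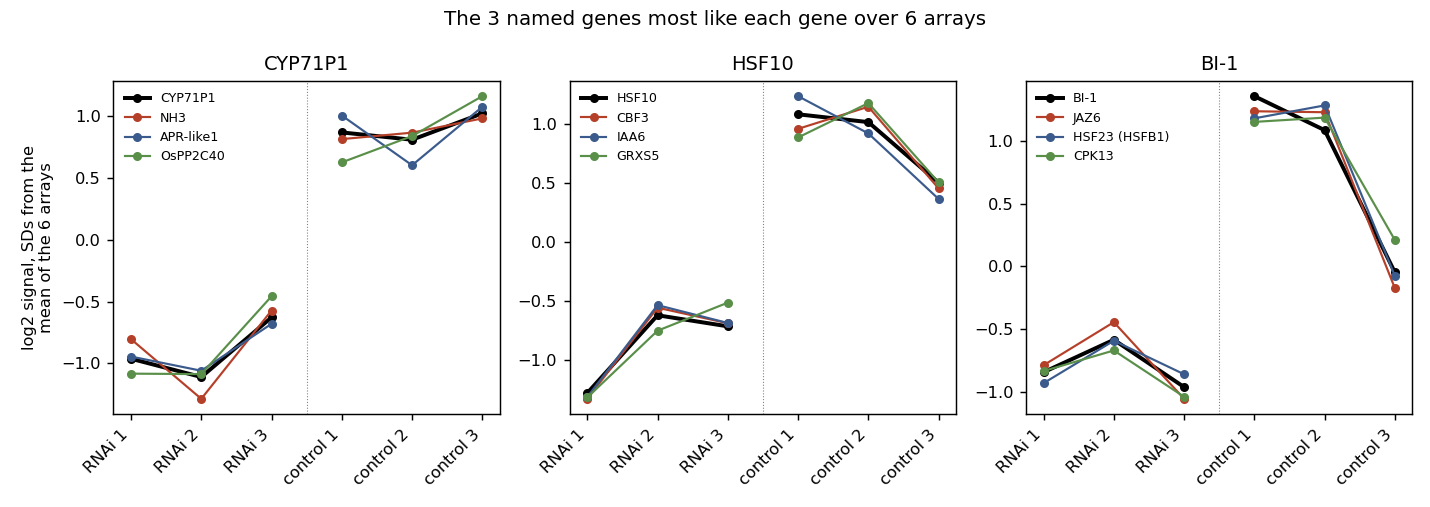
Log2 signal on each array (vertical axis, in SDs from the mean over the 6 arrays; lines only join points of 1 gene within a group) for CYP71P1, HSF10 and BI-1 in black and the 3 named genes most like each in colour. The coloured genes follow the black line within groups too, such as the low control replicate 3 of HSF10, BI-1 and their matches.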

How the data were processed

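The values the authors deposited are linear intensities, 1 per probe set and array. The submitters' processing notes name GCOS 1.2, and neither they nor the labels say how probes were summarised. Run records, also deposited, hold other kinds of value (fluidics and scanner entries) and were used only for the order of hybridizations and the module entry of each array.

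Each of the 6 arrays was scaled to a 2% trimmed mean of 500 and taken to log2(signal + 16), which understates the change of low genes. Of 57194 probe sets other than controls, the lower 50% by mean log2 signal were left out. Groups came from the titles. RNAi was set against control for the remaining 28597 by limma (version 3.58.1, R 4.3.3; trended eBayes, two-sided, Benjamini-Hochberg adjustment over all of them, threshold 0.05), tested on simulated data. SAM at a q of 5% with 20 permutations was an alternative, with scaling, constant, filter, trend, replicate block and single arrays left out.

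The members and lists were chosen with earlier results of these data known. List genes were matched by symbol or synonym and counted by the probe set of highest mean signal, and 12 genes with unclear names were left out. The text names all called list genes and up to 6 of smallest adjusted p per list. DAD1, LSD1, TDC2, ASA2, ASB2, DAHPS2, HSFA4B, HSFA2D, the ASMT genes and other untested genes were added after their values were seen. 1 gene of the lesion list is not reported here by name.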

Additional observations from a re-analysis of the deposited data

How the results depend on the processing

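The log2 difference of each of the 4 probe sets kept its sign in all 12 alternatives. Leaving out arrays, changing the added constant or adding the replicate block could not have reversed it. At the reported scaling no RNAi value reached a control value, and this contrast chose the genes. The values that moved beyond the replicate SD were those for CYP71P1 (brighter probe set) of -4.44 with 1 added, -2.82 with 64 added and -3.36 as deposited, for its dim probe set -1.89 with 1 added and -0.19 with 64 added, and as deposited -2.29 for HSF10 and -1.15 for BI-1. Leaving out each array gave -4.09 to -3.58 for CYP71P1, -0.72 to -0.35 for its dim probe set, -2.08 to -1.66 for HSF10 and -0.65 to -0.42 for BI-1. The count of 601 called probe sets was 37 as deposited, 394 with no filter on low signal, 303 without the trend, 537 with SAM and, without single arrays, from 240 (control replicate 2) to 877 (RNAi replicate 1), with 349 without RNAi replicate 2, 350 without RNAi replicate 3, 361 without control replicate 1 and 339 without control replicate 3, and the share higher in RNAi was 51.9%, against 64.9% as deposited, 62.9% with SAM, 61.4% without the trend, 71.7% without control replicate 2 and 62.0% without control replicate 1. In the serotonin list ASB1 passed in 3 alternatives, giving a count of 1 with 64 added, with the lower 25% left out and without RNAi replicate 1, so leaving out arrays gave 0 to 1. In the heat shock factor list the count was 2 with quantile normalization, where HSFA1 passed (adjusted p = 0.0474), 0 as deposited, and 1 to 2 without single arrays, where HSFA9 passed without RNAi replicate 1. The lesion and cell death lists kept a count of 0 in all 16 alternatives. With the replicate number as a block, 424 probe sets passed and no list count changed. A block cannot change the member differences, because each number occurs once in each group. Deviations of same-numbered arrays correlated at -0.0452, 0.00838 and 0.00207. Over so few arrays, values this near 0 do not show whether the numbers pair the samples. Arrays of the same number also share a module entry in the run records. The cause of these shifts was not tested, beyond the scale of control replicate 3 as deposited and the added constant itself.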

Other observations

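Several genes lay under the signal filter or outside the lists because their names were unclear, and are given as values chosen after they were seen. HSFA2B, a heat shock factor gene, had signals of 47.8, 37.5 and 44.7 in RNAi replicates 1 to 3, against 5.36, 1.70 and 2.73 in control replicates 1 to 3. It was not tested at the reported filter, and its adjusted p with limma was 0.0669 with no filter and 0.0815 with the lower 25% left out. AP25, an aspartic protease gene of tapetal cell death, was also higher without overlap at low signal. AP25 had means of 42.7 ± 10.3 in RNAi and 15.2 ± 12.1 in control leaves (SD, n = 3 each). Its adjusted p with limma was 0.472 with no filter. HSFA2A, another heat shock factor gene under the filter, was lower without overlap at its brightest probe set. The signals there were 5.60, 26.3 and 5.43 in RNAi replicates 1 to 3, against 72.0, 32.3 and 43.3 in control replicates 1 to 3. With no filter the adjusted p with limma was 0.355, and the other HSFA2A probe sets overlapped between groups. Of 9 list genes under the filter, all but HSFA2B, AP25 and HSFA2A overlapped. Among all tested probe sets 22.4% did not overlap. The share under the filter was not counted, so nothing is read from these separations. A gene named SPL11, the name of both a spotted leaf ubiquitin ligase and a SQUAMOSA promoter binding protein-like factor, had 4821, 3920 and 3683 in RNAi replicates 1 to 3, against 4107, 3895 and 4399 in control replicates 1 to 3, and its groups overlapped (limma, adjusted p = 0.99). Both genes named NAC4 were tested, with log2 differences of -0.37 and 0.31 (limma, adjusted p = 0.311 and 0.616), and the annotation does not say which is the NAC factor of cell death.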
